A study of Drosophila melanogaster with 14 samples.

Results

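The 10 genes nSyb, Snap25, Syx1A, Rop, unc-13, cpx, brp, Rim, Syn and comt encode the core machinery that releases synaptic vesicles. They were taken by symbol from a list of named genes whose rule uses no measured value, although the list was drawn up with earlier results of these data known, and all 10 were found among the 13792 genes that could be summed from the deposited transcripts. RNA had been sequenced from LNvs, the ventral lateral clock neurons of the fly brain that release the neuropeptide PDF, in 14 libraries. Of these, 4 came from Atx2 RNAi flies (2 at ZT0 and 2 at ZT12), 4 from tyf(e) mutants (2 at ZT4 and 2 at ZT16) and 6 from WT flies, with 1 library for each of ZT0, ZT2 and ZT4 in the morning and of ZT12, ZT14 and ZT16 in the evening. ZT is zeitgeber time in hours, with ZT0 at lights on and ZT12 at lights off of a 12 h light and 12 h dark cycle.

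All flies were females in a w1118 background, kept at 25 °C and aged on sucrose-yeast food, and in all groups the LNvs carried mGFP under Pdf control, by which they were sorted. In Atx2 RNAi flies a hairpin against Atx2 (line KK108843) was expressed in the same PDF neurons, so that one RNAi line stands for the loss of the gene in these cells alone. The tyf(e) flies, called tyf below, carry a mutation in every cell of the animal, so an effect on LNvs may come from other cells. The library given as WT ZT0 is labelled ZT24. Atx2 RNAi libraries of ZT0 were compared with WT ZT0 and ZT2, and those of ZT12 with WT ZT12 and ZT14. The tyf libraries of ZT4 were compared with WT ZT2 and ZT4, and those of ZT16 with WT ZT14 and ZT16, so WT ZT2 and ZT14 serve as controls for both genotypes. No label says that replicates came from separate cultures or dissections, and p-values therefore measure the spread between these libraries, which may be technical. In each comparison the WT libraries were taken at different hours, so any change between these hours counts as spread. Not all of them share the hour of the mutant libraries.

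A synaptic vesicle fuses when nSyb on the vesicle zips together with Syx1A and Snap25 on the plasma membrane into a SNARE complex, which Rop, the fly Sec1/Munc18 protein, and Unc-13 prepare and which complexin holds and releases. NSF, encoded by comt, takes spent SNARE complexes apart again, Brp and Rim build the active zone where vesicles dock, and Synapsin ties the reserve pool of vesicles together. LNvs signal through PDF, which is packed in dense-core vesicles, and also through small vesicles of this kind.

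The libraries held 5216112 to 23507263 estimated counts. The targeted genes checked the labels: Atx2 had 20.1 to 44.6 CPM (read counts of a library scaled to a common total, with the TMM factors of all 14 libraries) in the 4 Atx2 RNAi libraries, against 114.9 to 223 CPM in WT, and tyf had 33.8 to 65.8 CPM in the 4 tyf libraries, against 308 to 933 CPM in WT. tyf was also lower in Atx2 RNAi at ZT0, at 188 and 228 CPM (log2 fold change -1.65, edgeR adjusted p = 0.0373), but not called at ZT12, with 603 and 801 CPM. All 8 markers of PDF neurons (Pdf, Clk, cyc, per, tim, cry, Pdfr and vri) were above 5 CPM in every library. Their summed level was not alike: it was 106100 to 141400 CPM in Atx2 RNAi and 97560 to 156500 CPM in tyf, against 62400 to 102500 CPM in WT, most of it from Pdf. Most of the list are clock genes, and within WT vri ran from 6.43 to 884 CPM and tim from 149 to 2183 CPM. Whether changes of the list came from the clock or from the cells sorted was not tested. Of the 8, Pdfr and vri were called higher and cry lower in Atx2 RNAi at ZT0, and cry and Pdfr higher at ZT12, and the median log2 fold change of the list was 0.52 and 0.71. In tyf 2 of the 8 were called higher at ZT4, with a median of 0.48. At ZT16 of tyf 1 was called higher and 1 lower, with a median of -0.63. The summed level of 8 general neuron markers overlapped between the genotypes (8112 to 9869 CPM in Atx2 RNAi, 8949 to 10900 CPM in tyf and 8521 to 11630 CPM in WT). The summed level of 7 glial markers was higher in tyf, at 151 to 318 CPM, than in Atx2 RNAi (15.2 to 50.3 CPM) and WT (19.6 to 48.5 CPM). repo, the transcription factor that defines glia, had 2.23 to 5.77 CPM in tyf, 0.149 to 1.47 CPM in Atx2 RNAi and 0 to 0.937 CPM in WT, while Gs2, a glutamine synthetase, had 91.0 to 219 CPM in tyf, 3.63 to 20.3 CPM in Atx2 RNAi and 6.38 to 26.1 CPM in WT. At ZT16 of tyf 2 of 6 photoreceptor markers were called higher, ninaE and Arr2 (edgeR adjusted p = 0.0115 and 0.0410), with a list median of 2.10. At ZT4 of tyf 0 of the 6 were called and the median log2 fold change was -1.20. In Atx2 RNAi 1 of the 6 was called lower at ZT0 (median 0.14) and 0 at ZT12 (median -0.05). The summed level of 5 fat body markers was 56.9 to 129 CPM in Atx2 RNAi and 30.5 to 109.7 CPM in tyf, against 13.4 to 88.5 CPM in WT. Of these markers, apolpp had 52.7 to 59.7 CPM in Atx2 RNAi and 11.9 to 52.5 CPM in tyf, against 10.1 to 30.6 CPM in WT. Yp1 and Yp2 overlapped between the genotypes. Fbp1 and Lsp2 were at most 2.08 CPM in any library, and each was at 0 in at least 1 library of every genotype. Since RNA was pooled over sorted cells, fewer cells of a type and less RNA per cell cannot be told apart.

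All 10 genes were well expressed in WT LNvs, but over a wide range. On the deposited TPM scale, which divides by transcript length, nSyb had the highest mean level, 752 ± 87.1 TPM (SD, n = 6), and brp the lowest, 39.0 ± 11.5 TPM. The RNA was amplified before sequencing, which can alter values per length and was not tested. The order of genes is therefore given for this scale only. These levels placed nSyb at percentile 98.84 and brp at percentile 82.94 of the 13490 genes with a TPM above 0 in WT. After nSyb came cpx with 572 ± 119 TPM, unc-13 with 217 ± 33.3 TPM, Syx1A with 203 ± 20.7 TPM, Syn with 171 ± 40.7 TPM and Snap25 with 161 ± 39.2 TPM. Rim (96.0 ± 14.7 TPM), Rop (91.4 ± 10.9 TPM) and comt (82.1 ± 15.3 TPM) followed. Neighbours in this order overlapped between libraries except at 3 places: every library had less unc-13 than any had cpx, less Rim than any had Snap25, and less brp than any had comt. On this scale the 3 SNAREs were not at like levels, with the mean of nSyb above those of its partners Syx1A and Snap25 in the same cells.

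**Figure D1:**
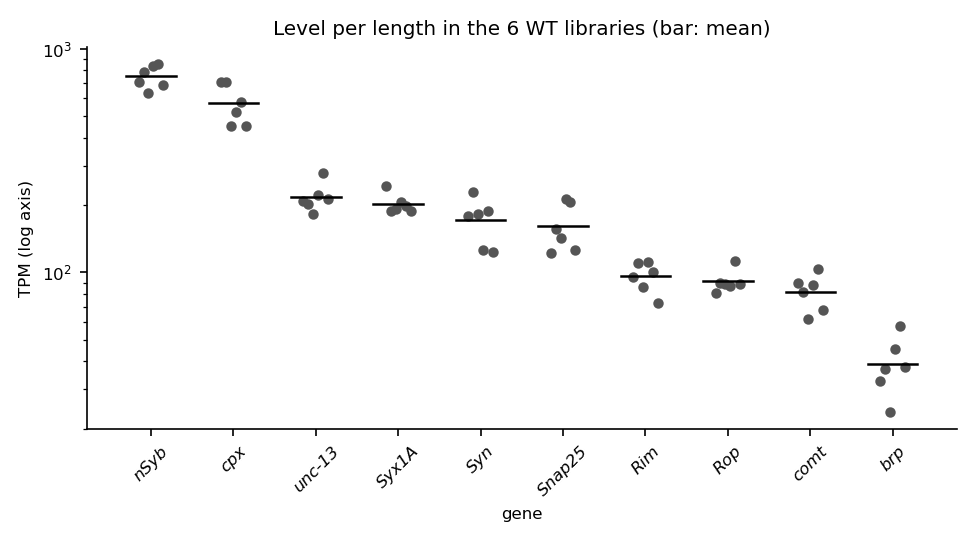
Level of each of the 10 genes in TPM, on a log axis, in the 6 WT libraries (points) with the mean (bar), ordered by mean. nSyb and cpx lie above 450 TPM in every library, and brp lies between 23.9 and 57.5 TPM.

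The release machinery was lower in both mutants more often than higher. Of the 10 genes, 1 passed an adjusted p of 0.05 (edgeR quasi-likelihood F-test with Benjamini-Hochberg adjustment over all genes tested) in Atx2 RNAi at ZT0, 4 at ZT12, 1 in tyf at ZT4 and 2 at ZT16, and each of these 8 calls was a lower level in the mutant. Among all genes tested, 7.30% passed in Atx2 RNAi at ZT0, 6.83% at ZT12, 4.30% in tyf at ZT4 and 6.22% at ZT16. The count at ZT0 was near this share and that at ZT12 above it. The standard errors of the members at ZT12 ran from 0.19 (cpx) to 0.24 (Syn), against a median of 0.34 over all genes. Genes with smaller errors pass more easily, and the share among genes of like level was not counted. The median log2 fold change of the 10 genes was -0.39 in Atx2 RNAi at ZT0, against -0.01 over all genes, and -0.69 against -0.01 at ZT12. In tyf it was -0.41 against 0.01 at ZT4, and -0.50 against -0.03 at ZT16. The members that passed were comt, Rop, Snap25, cpx and Syn, while nSyb, Syx1A, unc-13, brp and Rim passed in no comparison with WT. The comparisons of Atx2 RNAi and of tyf share 2 WT libraries, so they are not independent of each other. At ZT12 of Atx2 RNAi, where 4 members fell, all 4 fat body markers tested had an unadjusted edgeR p under 0.05 and were higher, 2 of them, Yp2 and apolpp, passed, and the median log2 fold change of the list was 2.98. apolpp had 55.2 and 59.7 CPM in the Atx2 RNAi libraries of ZT12 and 52.7 to 58.4 CPM at ZT0, against 10.1 to 30.6 CPM in WT, and Yp2 had 24.9 and 5.79 CPM at ZT12, against 1.31 and 2.31 CPM in WT ZT12 and ZT14 and up to 24.9 CPM in the other WT libraries. The part of these markers, and of those of PDF neurons, in the lower levels was not tested. The counts leaned on single libraries: at ZT12 of Atx2 RNAi 0 members passed without replicate 1 of that group and 1 without replicate 2, and at ZT16 of tyf 0 passed without either tyf library of ZT16 or without WT ZT14. At ZT0 of Atx2 RNAi 2 passed without WT ZT0 and 0 without any of the other 7 libraries. The calls over all genes moved too: in Atx2 RNAi at ZT12 they numbered 116 and 133 without replicate 1 and replicate 2 of that group, against 590 with all libraries, and with 1 library left out they ran from 169 to 811 at ZT0 (631 with all), from 133 to 366 in tyf at ZT4 (409) and from 148 to 792 in tyf at ZT16 (591). At ZT4 of tyf 0 members passed without tyf ZT4 replicate 2, either tyf library of ZT16, WT ZT2 or WT ZT4.

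**Figure D2:**
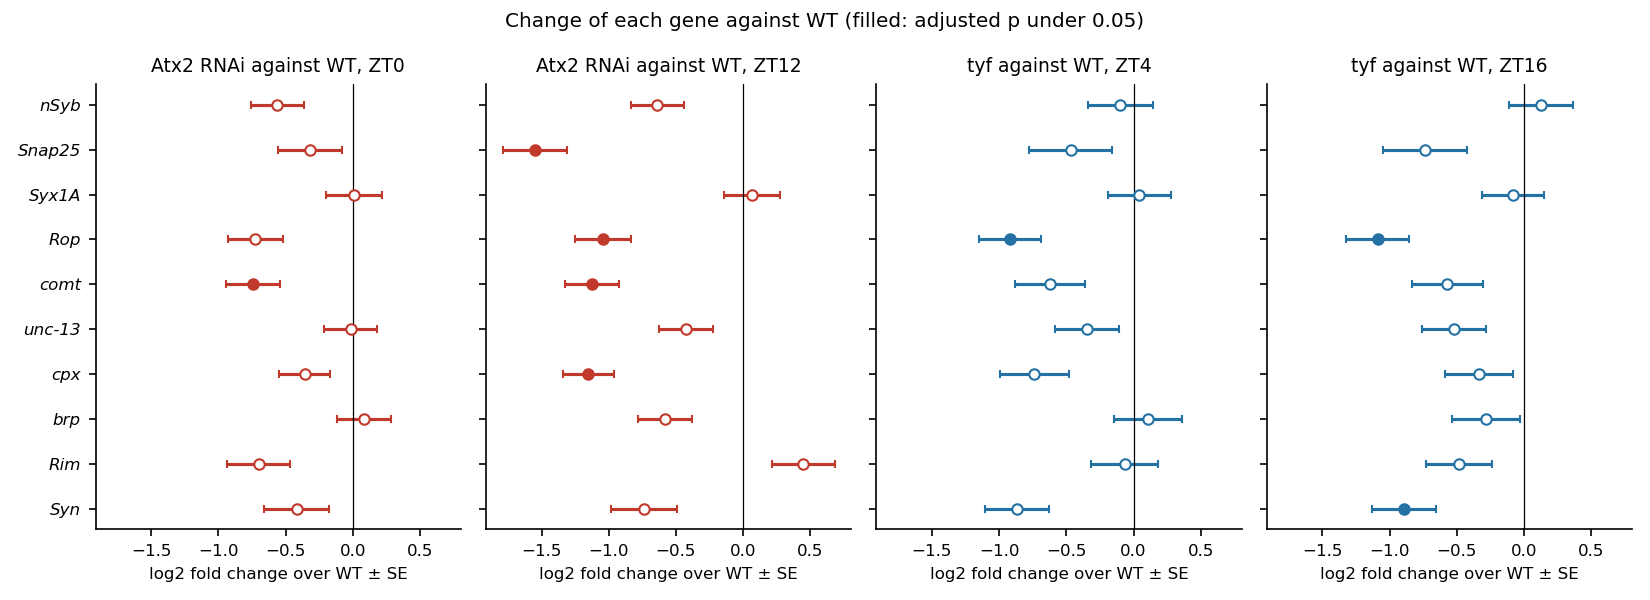
Log2 fold change of each gene over WT (point) with its standard error (bar) in the 4 comparisons, Atx2 RNAi in red and tyf in blue, filled where the adjusted p is under 0.05. Rop lies between -1.09 and -0.72 in the 4 panels, whereas Syx1A lies between -0.08 and 0.07.

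Rop was the member most often lower. It (FBgn0004574, chromosome 3L, 4136359 to 4138996, minus strand) had 69.0 and 74.0 CPM in Atx2 RNAi at ZT0 and 58.1 and 63.4 CPM at ZT12. In tyf it had 78.1 and 58.8 CPM at ZT4 and 57.3 and 65.7 CPM at ZT16. The 6 WT libraries, in order of time from ZT0, had 104.1, 127, 133, 114.7, 136 and 119 CPM. All 8 mutant libraries were thus below all 6 WT libraries, as they were for 1.94% of the 9695 genes compared in this way. Rop fell in 3 of the 4 comparisons, with a log2 fold change of -1.05 ± 0.21 (SE, edgeR adjusted p = 0.0145) in Atx2 RNAi at ZT12, -0.92 ± 0.23 (adjusted p = 0.0382) in tyf at ZT4 and -1.09 ± 0.23 (adjusted p = 0.0143) in tyf at ZT16. In Atx2 RNAi at ZT0 the value was -0.72 ± 0.21 with an edgeR adjusted p of 0.0582, which missed the threshold and passed it in DESeq2. The 3 calls were lost when single libraries were left out, with edgeR adjusted p-values up to 0.155 in Atx2 RNAi at ZT12, 0.171 in tyf at ZT4 and 0.122 in tyf at ZT16, while the fold change stayed negative.

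comt, the NSF ATPase that recycles SNAREs (FBgn0000346, chromosome X, 13259021 to 13262488, plus strand), behaved much like Rop. It had 73.2 and 92.6 CPM in Atx2 RNAi at ZT0 and 64.2 and 65.2 CPM at ZT12. The tyf libraries had 93.2 and 65.2 CPM at ZT4 and 97.0 and 78.1 CPM at ZT16. WT had 135, 136, 109, 136, 147 and 107 CPM. Again no mutant library reached the lowest WT library, though the highest tyf library and the lowest WT library were 97.0 and 107 CPM. comt fell in Atx2 RNAi by 0.74 ± 0.20 on the log2 scale at ZT0 (SE, edgeR adjusted p = 0.0486) and by 1.13 ± 0.20 at ZT12 (adjusted p = 0.00859). In tyf its log2 fold change was -0.62 ± 0.26 at ZT4 and -0.57 ± 0.26 at ZT16, with edgeR adjusted p-values of 0.214 and 0.224. The call at ZT0 was lost under 7 of 10 other settings and whichever library was left out, so at this depth and number of libraries it lay at the edge of the test.

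Of the 3 SNAREs, only Snap25 passed in a comparison with WT. Snap25 (FBgn0011288, chromosome 3L, 24074180 to 24299205, plus strand) had 118 and 144 CPM in Atx2 RNAi at ZT0 and 66.1 and 86.0 CPM at ZT12. In tyf it had 175 and 89.7 CPM at ZT4 and 125 and 92.3 CPM at ZT16, against 133, 187, 181, 236, 210.4 and 142 CPM in WT. The Atx2 RNAi libraries of ZT12 were the lowest of all 14, and the share of all genes for which this holds was not counted. The tyf libraries of ZT4 lay on both sides of the lowest WT library and differed from each other by almost as much as the WT libraries did. In Atx2 RNAi Snap25 fell by 1.55 ± 0.24 on the log2 scale at ZT12 (fold 0.342, SE, edgeR adjusted p = 0.00425), and this was the member with the largest change in any comparison with WT. Its log2 fold change was -0.32 ± 0.23 in Atx2 RNAi at ZT0, -0.47 ± 0.31 in tyf at ZT4 and -0.74 ± 0.31 in tyf at ZT16, with edgeR adjusted p-values of 0.467, 0.444 and 0.185.

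The other SNAREs did not pass. nSyb, the vesicle SNARE (FBgn0013342, chromosome 3L, 1630348 to 1637752, minus strand), had 790.4 to 898 CPM in Atx2 RNAi and 981 to 1479 CPM in tyf, against 1094 to 1349.8 CPM in WT. Its log2 fold change in Atx2 RNAi was -0.56 ± 0.20 at ZT0 and -0.64 ± 0.20 at ZT12, with edgeR adjusted p-values of 0.113 and 0.0769, and in tyf it was -0.10 ± 0.24 at ZT4 and 0.13 ± 0.24 at ZT16. Syx1A, the syntaxin of the plasma membrane (FBgn0013343, chromosome 3R, 24101600 to 24105763, minus strand), was the steadiest member. It had 288 to 399 CPM in Atx2 RNAi and 268 to 408 CPM in tyf, against 292 to 345 CPM in WT, and its 4 log2 fold changes ran from -0.08 to 0.07. The 95% interval was widest in tyf, from -0.59 to 0.42 at ZT16 and from -0.46 to 0.55 at ZT4, so changes of that size could not be detected here. Of the exon bases of Syx1A, 10.7% also belong to eIF4EHP on the same strand, and the counts of these bases depend on how reads were assigned.

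Of the genes that act between docking and fusion, cpx passed in Atx2 RNAi at ZT12 and unc-13 passed nowhere. cpx (FBgn0041605, chromosome 3R, 4280221 to 4304604, plus strand) encodes complexin, which clamps assembled SNAREs until calcium enters and promotes fusion when it does. It had 1137 and 1066 CPM in Atx2 RNAi at ZT0, and 434 and 458 CPM at ZT12. The tyf libraries had 785 and 693 CPM at ZT4 and 858 and 688 CPM at ZT16. WT had 1276, 1491, 978, 959.6, 1023 and 879 CPM. The Atx2 RNAi libraries of ZT12 were below the other 12, and those of ZT0 lay within the WT range. The share of all genes for which the libraries of ZT12 are the lowest was not counted. cpx fell in Atx2 RNAi by 1.15 ± 0.19 on the log2 scale at ZT12 (fold 0.450, SE, edgeR adjusted p = 0.00578), whereas the value at ZT0 was -0.36 ± 0.19 (adjusted p = 0.290). In tyf the log2 fold change was -0.74 ± 0.26 at ZT4 and -0.33 ± 0.25 at ZT16, with edgeR adjusted p-values of 0.128 and 0.492. unc-13, whose product opens syntaxin and primes vesicles (FBgn0025726, chromosome 4, 867824 to 912331, minus strand), had 893 to 1254 CPM in Atx2 RNAi and 802 to 1098 CPM in tyf, against 1156 to 1446 CPM in WT. The largest change of unc-13, -0.52 ± 0.24 on the log2 scale in tyf at ZT16, did not pass (edgeR adjusted p = 0.220).

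**Figure D3:**
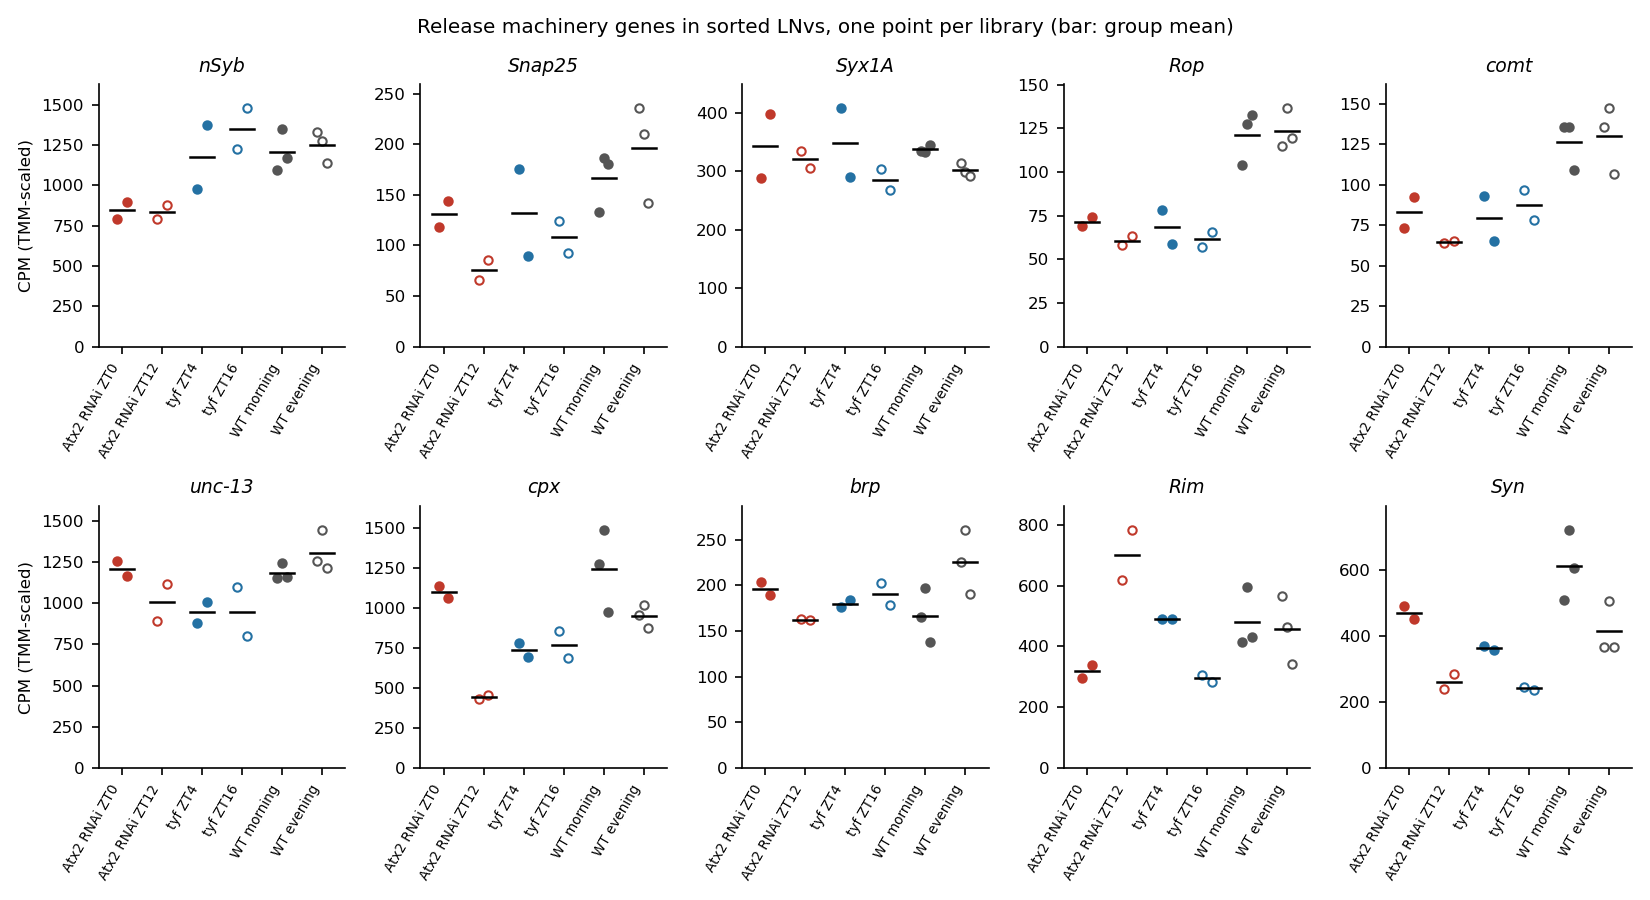
CPM, scaled by TMM, of the 10 genes in each of the 14 libraries (points, filled for morning and open for evening), with the mean of each group (bar), for Atx2 RNAi (red), tyf (blue) and WT (grey). For Rop and comt all 8 mutant points lie below all 6 WT points, whereas for Syx1A and brp the mutant points overlap the WT points.

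Among the genes of the active zone, Rim (FBgn0053547, chromosome 3R, 17872748 to 17916578, minus strand), which links vesicles to calcium channels, passed in no comparison with WT but changed with time in Atx2 RNAi, as given further on. It had 298 and 339 CPM in Atx2 RNAi at ZT0, and 617 and 783 CPM at ZT12. The tyf libraries had 489.7 and 490.5 CPM at ZT4 and 307 and 283 CPM at ZT16. WT had 415, 597, 432, 567, 464 and 341 CPM. The libraries of Atx2 RNAi at ZT12 were the highest of the 14 and those at ZT0 and of tyf at ZT16 the lowest, with WT between them. How many of all genes have such an order was not counted. Against WT its log2 fold change was -0.70 ± 0.23 in Atx2 RNAi at ZT0, 0.45 ± 0.23 at ZT12, -0.07 ± 0.25 in tyf at ZT4 and -0.49 ± 0.25 at ZT16, with edgeR adjusted p-values from 0.0996 to 0.920. brp, whose product Bruchpilot forms the T-bars of fly active zones (FBgn0259246, chromosome arm 2R), had 162 to 204 CPM in Atx2 RNAi and 176 to 203 CPM in tyf, against 138 to 261 CPM in WT. Its largest change was -0.58 ± 0.20 on the log2 scale in Atx2 RNAi at ZT12, with an edgeR adjusted p of 0.105.

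Syn (FBgn0004575, chromosome 3R, 10190689 to 10222442, plus strand) encodes the single fly Synapsin. It had 491 and 451 CPM in Atx2 RNAi at ZT0, and 238 and 286 CPM at ZT12. The tyf libraries had 369 and 358 CPM at ZT4 and 246 and 238 CPM at ZT16. WT had 511, 722, 606, 368, 508 and 367 CPM. The evening libraries of both mutants were below every WT library, and the share of all genes for which this holds was not counted. Syn fell in tyf by 0.89 ± 0.24 on the log2 scale at ZT16 (SE, edgeR adjusted p = 0.0417), and its value at ZT4, -0.87 ± 0.24, missed the threshold (adjusted p = 0.0568). In Atx2 RNAi the log2 fold change was -0.42 ± 0.24 at ZT0 and -0.74 ± 0.24 at ZT12, with edgeR adjusted p-values of 0.339 and 0.0949. Without 1 of the 8 libraries the tyf call at ZT16 was lost in 3 cases, with an adjusted p of up to 0.306.

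Comparison of the time points asked whether any of these genes changed between morning and evening. In Atx2 RNAi 2 of the 10 genes passed for ZT12 against ZT0, in opposite directions, where 4.10% of all genes passed. Rim rose by 1.17 ± 0.24 on the log2 scale, a fold of 2.25 (SE, edgeR adjusted p = 0.0200), and cpx fell by 1.27 ± 0.19, a fold of 0.413 (adjusted p = 0.00481). Snap25 and Syn, at -0.75 ± 0.24 and -0.81 ± 0.24, had edgeR adjusted p-values of 0.127 and 0.104. Both calls were lost without either of the 2 libraries of ZT12 (0 members passed), and without either library of ZT0 the call of cpx held and that of Rim was lost (1 passed). Of the 4 fat body markers tested, Yp1 and Yp2 were called higher at ZT12 than at ZT0, and the median log2 fold change was 3.52. Their part was not tested.

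In tyf and in WT no member passed. For tyf, ZT16 against ZT4, 0.989% of all genes passed, and at an unadjusted edgeR p under 0.05 there were 2 members, Rim (-0.76 ± 0.25, adjusted p = 0.247) and Syn (-0.62 ± 0.24, adjusted p = 0.347). Of the 6 photoreceptor markers, 5 were higher at ZT16 of tyf than at ZT4 at an unadjusted edgeR p under 0.05, and 2 passed. The median log2 fold change of that list was 3.21, and its part was not tested. For WT, evening against morning, 1.43% of all genes passed. There Syn was the 1 member at an unadjusted edgeR p under 0.05, at -0.57 ± 0.22 (adjusted p = 0.420), and DESeq2 called none in either comparison. WT had 414 ± 80.9 CPM of Syn in the evening and 613 ± 106 CPM in the morning (SD, n = 3 each), with the evening library of ZT14 at 508 CPM and the lowest morning library at 511 CPM. The largest rise in WT was that of brp, 0.43 ± 0.21 (edgeR adjusted p = 0.608). With 3 libraries of different hours in each WT group, any change within the morning or the evening counts as spread.

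**Figure D4:**
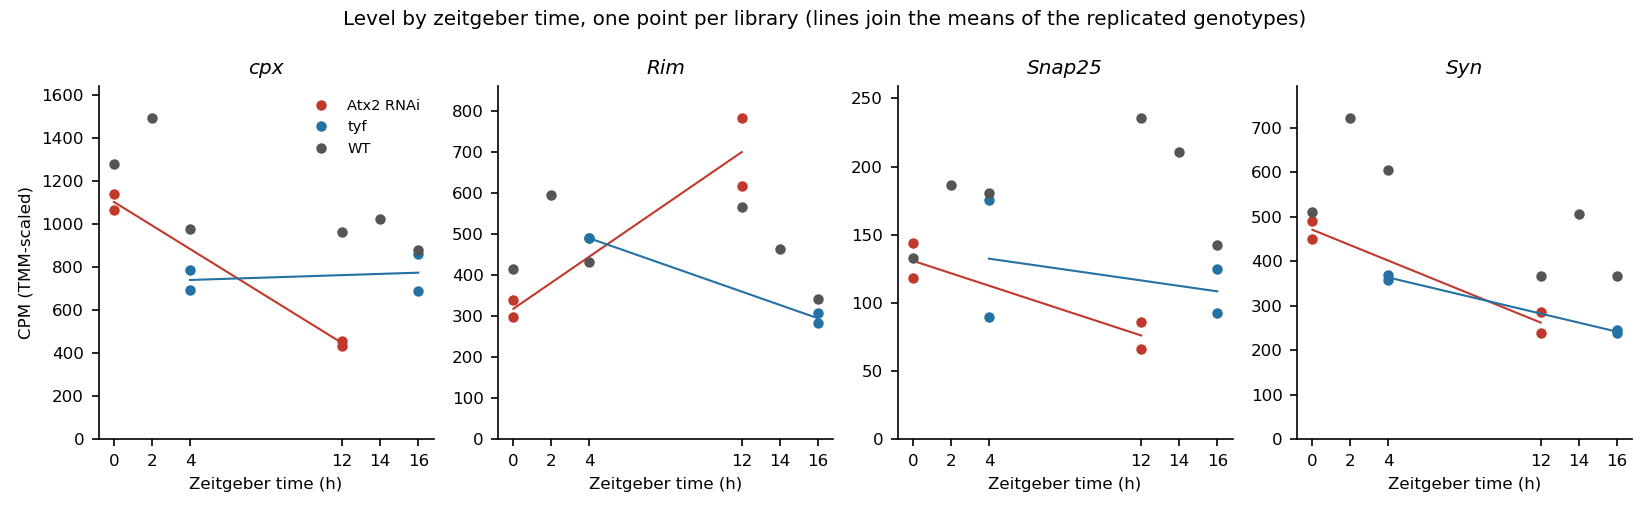
CPM, scaled by TMM, of cpx, Rim, Snap25 and Syn against zeitgeber time in hours, one point for each library, with lines through the group means of Atx2 RNAi (red) and tyf (blue), and WT in grey. In Atx2 RNAi Rim is at 617 and 783 CPM at ZT12 and at 298 and 339 CPM at ZT0, while cpx is at 434 and 458 CPM at ZT12 and at 1137 and 1066 CPM at ZT0.

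Whether the effect of a genotype differed between its times was tested as the interaction. No member passed for Atx2 RNAi, where 0.740% of all genes passed, nor for tyf, where 0.0526% passed. For Atx2 RNAi 4 members had an unadjusted edgeR p under 0.05. These were Snap25 (-1.23 ± 0.33, adjusted p = 0.156), Rim (1.15 ± 0.33, adjusted p = 0.183), cpx (-0.79 ± 0.27, adjusted p = 0.268) and brp (-0.66 ± 0.28, adjusted p = 0.404). DESeq2 called 2 of the members, Snap25 and Rim. For tyf 0 members had an unadjusted edgeR p under 0.05, and DESeq2 called 0. The larger count of calls in Atx2 RNAi at ZT12 than at ZT0 was therefore not shown to be a difference between the times.

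Atx2 RNAi and tyf were also compared directly, in a fit of all 14 libraries, although their times differ by 4 h. In the morning (Atx2 RNAi at ZT0 against tyf at ZT4) 0 of the 10 genes passed by edgeR or by DESeq2, where 4.32% of all genes passed, and 3 had an unadjusted edgeR p under 0.05. In the evening (ZT12 against ZT16) 2 passed, where 5.56% of all genes passed. Rim was higher in Atx2 RNAi than in tyf by 1.25 ± 0.25 on the log2 scale (SE, edgeR adjusted p = 0.00819), with 617 and 783 CPM in Atx2 RNAi against 307 and 283 CPM in tyf. cpx was lower in Atx2 RNAi, with a log2 difference of -0.79 ± 0.22 (edgeR adjusted p = 0.0417), with 434 and 458 CPM in Atx2 RNAi against 858 and 688 CPM in tyf. nSyb, at -0.69 ± 0.21 (edgeR adjusted p = 0.0674), missed the threshold and passed in DESeq2. cpx lost its call without 7 of the 14 libraries (edgeR adjusted p of up to 0.276) and Rim without 3 of them (up to 0.121): both were lost without Atx2 RNAi ZT12 replicate 2 or either tyf library of ZT16 (0 members passed), and cpx alone without the other Atx2 RNAi library of ZT12, either of ZT0 or WT ZT14 (1 passed). With library size only, which moved the median of all genes by 0.51, the log2 difference of cpx was -0.28 (edgeR adjusted p = 0.470). For Rop no difference was called, with a log2 difference of 0.06 (95% interval -0.39 to 0.51) in the morning and -0.02 (-0.47 to 0.43) in the evening.

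For most members nearly all of the TPM fell on a few transcripts. Rop was quantified on 1 transcript (Rop-RB, 100% in every library), and comt-RA took 99.6% of comt on average. Snap25-RA took 93.0% of Snap25, cpx-RJ 69.0% of cpx with a range of 56.8% to 77.2% over libraries, and brp-RM 60.7% of brp. Rim was spread over Rim-RU (35.0%), Rim-RR (34.1%) and Rim-RAA (20.3%), and the share of Rim-RAA ran from 7.58% to 40.0% within WT alone. The 4 Syn transcripts are listed at one length in the deposited files and had 25.0% each in every library. The changes of Rop and comt are thus changes of a single quantified transcript, and no test was made of transcript use.

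Other presynaptic genes, taken from 4 lists by function, showed which neighbours of the machinery were lower or higher with it. In the list of active zone, priming and tethering genes (13 of 14 found) Rab3, the vesicle GTPase that binds Rim, fell in all 4 comparisons, and Fife, an active zone scaffold related to Piccolo and Rim, rose in all 4. Rab3 had 196 to 243 CPM in Atx2 RNAi and 161 to 240.5 CPM in tyf, against 463 to 754 CPM in WT, with log2 fold changes from -1.83 to -1.28. Fife had 408 to 515 CPM in Atx2 RNAi and 374 to 551 CPM in tyf, against 28.8 to 64.9 CPM in WT, with folds of 8.05 to 10.5 and edgeR adjusted p-values of at most 0.000104. Fife was the 1 gene of the 4 lists to rise against WT, and all 8 mutant libraries were above all 6 WT libraries for 2.04% of genes. The calls of Fife held whichever of the 8 libraries was left out, while those of Rab3 held in 7 and 6 of 8 cases in Atx2 RNAi at ZT0 and ZT12 and in 8 and 5 of 8 in tyf at ZT4 and ZT16. In tyf at ZT16 Cadps and Rab3-GEF of this list also fell, by 0.82 ± 0.22 and 1.19 ± 0.28 on the log2 scale, and these calls held in 2 and 5 of 8 cases with a library left out. Of the 13 genes, 1 was called higher and 3 lower in tyf at ZT16, and 1 higher and 1 lower in each other comparison. Over all genes 7.30% and 6.83% passed in Atx2 RNAi at ZT0 and ZT12, and 4.30% and 6.22% in tyf at ZT4 and ZT16.

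Of 13 genes of vesicle endocytosis, 5 fell in Atx2 RNAi at ZT12, and 1 in each of the other 3 comparisons. Over all genes 6.83% passed at ZT12, and in the other 3 comparisons, where 7.30%, 4.30% and 6.22% passed, 1 of 13 was near that background. At ZT12 these were Amph (-1.54 ± 0.25), EndoA (-1.32 ± 0.20), AP-2alpha (-1.06 ± 0.22), lap (-0.90 ± 0.22) and Synj (-0.84 ± 0.21), which bend, coat or uncoat membrane. With 1 of the 8 libraries left out these calls held in 7, 6, 5, 4 and 3 cases, in the same order. AP-2alpha, a subunit of the clathrin adaptor, had 46.8 to 54.5 CPM in Atx2 RNAi and 61.3 to 69.1 CPM in tyf, against 88.7 to 129 CPM in WT. It also fell in Atx2 RNAi at ZT0 and in tyf at ZT16, and at ZT4 the gene of tyf that fell was Chc, the clathrin heavy chain, a call lost whichever library was left out. Of 10 other SNARE, NSF and Sec1 family genes found of 11, 1 fell, alphaSnap, the cofactor of NSF, in Atx2 RNAi at ZT12 (-0.93 ± 0.20, edgeR adjusted p = 0.0196), where comt fell as well. With 6.83% of all genes called there, 1 of 10 was near the background. The call of alphaSnap held in 4 of the 8 cases with a library left out. The median log2 fold change of that list at ZT12 was -0.42, against -0.60 for endocytosis and -0.69 for the 10 release genes. It was -0.13 for the list of active zone, priming and tethering genes and -0.30 for that of vesicle transporters and vesicle proteins.

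Of 8 vesicle transporters and vesicle proteins found of 10, VAChT fell in all 4 comparisons and Syt1 in Atx2 RNAi at ZT12 (-0.84 ± 0.21, edgeR adjusted p = 0.0367). Thus 1 of 8 was called in Atx2 RNAi at ZT0, 2 at ZT12, and 1 at each time of tyf. Over all genes 7.30% and 6.83% passed in Atx2 RNAi at ZT0 and ZT12, and 4.30% and 6.22% in tyf at ZT4 and ZT16. VAChT, which loads acetylcholine, had 5.998 to 24.9 CPM in Atx2 RNAi and 10.1 to 23.5 CPM in tyf, against 45.03 to 89.0 CPM in WT. With a library left out, the calls of VAChT held in 4 and 6 of 8 cases in Atx2 RNAi at ZT0 and ZT12 and in all 8 at both times of tyf, and that of Syt1 held in 2 of 8. VAChT is a marker of cholinergic neurons, and its part in the lower values of Rop and comt, which it moved with, was not tested. Nor was that of the glial markers, which were higher in tyf and overlapped between Atx2 RNAi and WT. At ZT12 of Atx2 RNAi 1 of 8 general neuron markers fell, CadN (-1.04 ± 0.20), and the median of the 8 was -0.38. With 6.83% of all genes called in that comparison, 1 of 8 was near the background. No batch or date of sequencing is given, so a difference between sets of libraries made at separate times cannot be told apart from genotype where all mutant libraries differ from all WT libraries.

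**Figure D5:**
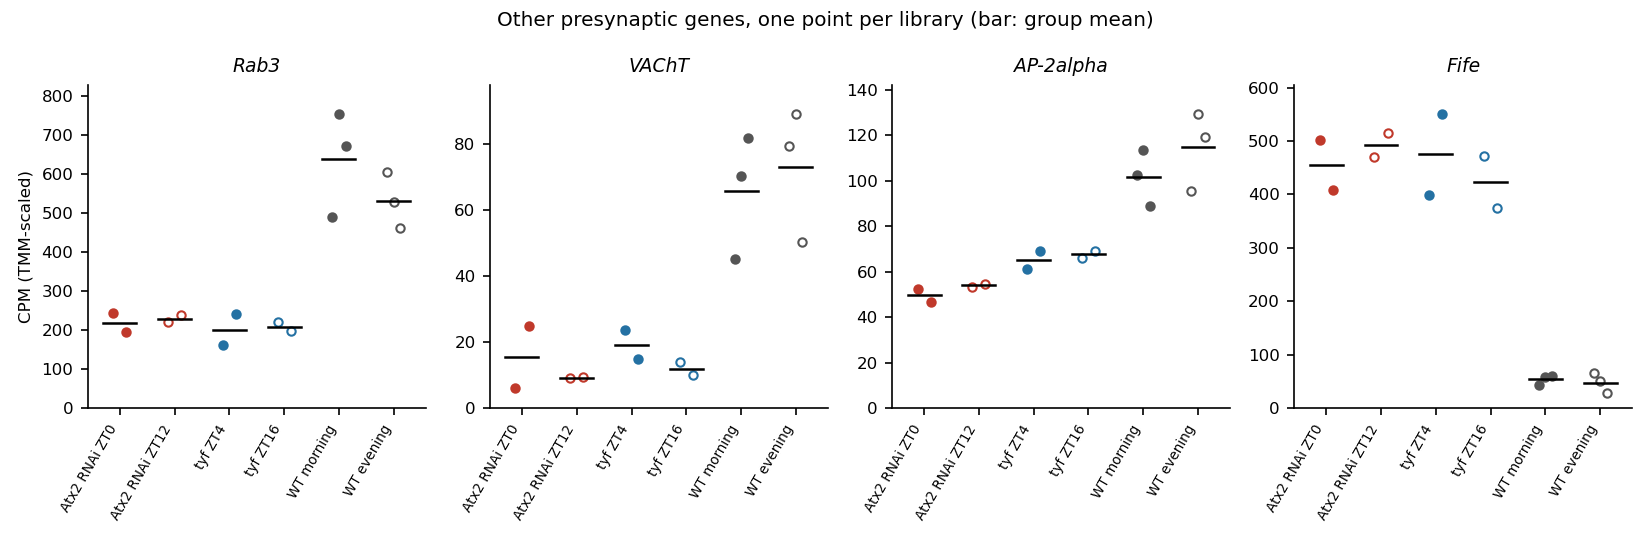
CPM, scaled by TMM, of Rab3, VAChT, AP-2alpha and Fife in each library (points, filled for morning and open for evening), with the mean of each group (bar), for Atx2 RNAi (red), tyf (blue) and WT (grey). All 8 mutant libraries lie below all 6 WT libraries for Rab3, VAChT and AP-2alpha and above them for Fife.

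Across the 14 libraries the members did not all move together. The highest correlations of log2 CPM between members were those of Snap25 with comt (Pearson r = 0.869), Rop with comt (r = 0.864) and Snap25 with Rop (r = 0.811), and the lowest were those of nSyb with Syx1A (r = -0.39) and cpx with Rim (r = -0.37). These are descriptions over libraries that share genotype and time. Among the 6715 genes with at least 10 counts in every library, those most like the mean standardized level of the 10 members were Ggamma1 (r = 0.925), ap (r = 0.924), ChT (r = 0.912), CG4911 (r = 0.910) and CG42795 (r = 0.910). That mean was highest in WT ZT2, at 0.99 SD, and lowest in Atx2 RNAi ZT12 replicate 1, with tyf ZT16 replicate 2 at -0.83 SD and Atx2 RNAi ZT12 replicate 2 at -0.64 SD next.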

How the data were processed

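LNvs carrying Pdf>mGFP were sorted by FACS, and T7 RNA polymerase was used to amplify the extracted RNA before sequencing (single-end reads, 50 bases). The authors quantified reads with kallisto against FlyBase 6.14 transcripts and deposited for each its estimated count without normalization, a TPM value (scaled by length and to the library) and an effective length, which is the length minus 49 bases. Amplification can alter values per length, which was not tested. The deposited counts and TPM of 30191 of 30438 transcripts matched Ensembl release 115 genes (BDGP6.54, coordinates 1-based) and were summed for each gene, and counts were rounded. The unmatched 247 held 0.234% of counts. Whether reads were counted by strand is not given in the sources used here.

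Tests were quasi-likelihood F-tests of edgeR 4.0.16 (limma 3.58.1, R 4.3.3) with TMM, filterByExpr and Benjamini-Hochberg adjustment, at an adjusted p under 0.05, over the 8 libraries of each mutant's experiment, the 6 of WT or all 14. The study's own tool, DESeq2 1.42.0, was an alternative, beside other scalings, filters, sets of libraries, a replicate block, a length offset, leaving out each library, and CPM per kb in place of TPM for levels. A scaling by library size that left trol, fmt and Pdf out of the total was added after seeing the data. All 10 members passed the filter. The fit was tested on simulated data. Plots were drawn with matplotlib 3.10.9 in Python 3.11.15.

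The members, lists and tests were chosen with earlier results of these data known. Every member is named, with values of every library for those past the threshold in any comparison. From each list of other genes, those past it against WT are named, up to 4 by size of change, and beyond these lap and Synj, so that a count of 5 is named in full. The 5 genes most like the members were ranked by Pearson r of log2 CPM (prior count 2). No DNA or protein sequence is printed.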

Additional observations from a re-analysis of the deposited data

Results flagged for a closer look

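In the evening the direct test of Atx2 RNAi against tyf called 2 of the 10 genes, where 5.56% of all genes passed. Rim was higher in Atx2 RNAi, by 1.25 on the log2 scale (edgeR adjusted p = 0.00819), and both Atx2 RNAi libraries were above both tyf libraries. The share of all genes without overlap between these groups was not counted. cpx was lower in Atx2 RNAi, at -0.79 (edgeR adjusted p = 0.0417), and again the 2 libraries of each genotype did not overlap. This call was lost without 7 of the 14 libraries, with the replicate block (adjusted p = 0.0655) and with library size only, where the difference was -0.28 (edgeR adjusted p = 0.470), and that of Rim was lost without 3 of the 14 libraries. The groups were taken at ZT12 and ZT16, so genotype and hour cannot be told apart. In WT, Rim had 567, 464 and 341 CPM at ZT12, ZT14 and ZT16, and cpx had 959.6, 1023 and 879 CPM. Groups of 2 or 3 libraries were too small for a test of single outlying libraries.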

How the results depend on the processing

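Members that passed against WT kept their direction under every setting run, including each library left out, although their number passing moved. In Atx2 RNAi at ZT0 the count of 1 became 3 with DESeq2 and 2 with at least 10 counts in every library. It became 0 with no filter on low counts, library size only, only the libraries of the comparison, the replicate block, the length offset, or the library size without trol, fmt and Pdf, and ran from 0 to 2 with a library left out. In Atx2 RNAi at ZT12 the count of 4 ran from 0 to 6 with a library left out. In tyf at ZT4 the count of 1 became 3 with DESeq2 or all 14 libraries, 2 with no filter or at least 10 counts in every library, and 0 with only the libraries of the comparison or the library size without trol, fmt and Pdf. It ran from 0 to 1 with a library left out. In tyf at ZT16 the count of 2 became 4 with library size only and ran from 0 to 2 with a library left out. For Atx2 RNAi at ZT12 against ZT0 the count of 2 became 4 with no filter or only the libraries of the comparison and ran from 0 to 2, and for its interaction with time the 0 became 2 with DESeq2 and 1 with no filter and ran from 0 to 1. For Atx2 RNAi against tyf in the evening the count of 2 became 1 with library size only or the replicate block and ran from 0 to 2. The other comparisons had 0 throughout.

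Changes near 0 turned sign. In Atx2 RNAi at ZT0, Syx1A was at -0.0079 with at least 10 counts, -0.00096 with the replicate block, -0.023 with the length offset, -0.025 with the library size without trol, fmt and Pdf, and -0.24 to 0.22 with a library left out. There unc-13 was at 0.031 with library size only, 0.0075 with no filter, 0.029 with all 14 libraries and -0.076 to 0.042 with a library left out, where brp ran from -0.034 to 0.21. With a library left out Syx1A ran from -0.0031 to 0.13 in Atx2 RNAi at ZT12. In tyf at ZT4 left-out libraries gave nSyb -0.36 to 0.12, Syx1A -0.22 to 0.27, brp -0.13 to 0.37 and Rim -0.29 to 0.17. Syx1A was there at -0.020 with library size only, and Rim at 0.026 with all 14 libraries and 0.0089 with the library size without trol, fmt and Pdf. In tyf at ZT16 nSyb was at -0.26 with library size only and -0.016 to 0.26 with a library left out, and Syx1A at 0.022 with the length offset and -0.17 to 0.0042 with a library left out. The cause was not tested.

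Over all genes, no filter raised the calls to 1126 and 1142 in Atx2 RNAi at ZT0 and ZT12 (631 and 590 as reported), 816 and 1006 in tyf at ZT4 and ZT16 (409 and 591), 721 and 349 for time in Atx2 RNAi and tyf (354 and 94), 228 for time in WT (1.43% of genes as reported), and 397 and 152 for the interactions (64 and 5). DESeq2 called 786 and 1026 in tyf, 238 and 252 for time in tyf and WT, 229 and 52 for the interactions, and 763 and 851 for Atx2 RNAi against tyf in the morning and evening (419 and 539). Library size only gave 416, 321 and 989 against WT in Atx2 RNAi at both times and tyf at ZT16, 23 and 14 for the interactions, and 1112 in the evening. It moved the median log2 value of all genes to -0.42 in tyf at ZT16, -0.31 in the tyf interaction, and 0.19 and 0.51 between the genotypes in the morning and evening. Only the libraries of the comparison gave 222 and 946 in tyf, 748 and 61 for time in Atx2 RNAi and tyf, and 1203 in the evening, and all 14 libraries gave 41 and 199 for time in tyf and WT and 111 and 8 for the interactions. The tyf interaction had 1 call with size factors of DESeq2 or the length offset, 23 with at least 10 counts and 8 with the library size without trol, fmt and Pdf. Replicates 1 and 2 share only a number: their deviations correlated between times by 0.0558 in Atx2 RNAi and 0.00751 in tyf, and the replicate block gave 228 genes for time in Atx2 RNAi and 15 for its interaction. The order of levels in WT was the same by CPM per kb, which divides the same counts by the same lengths as TPM. This was therefore no independent check of the order. A group of 2 libraries leaves intervals such as those given for Syx1A, within which a change could not be detected.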
